A study of Rattus norvegicus with 4 samples.

Results

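The comparison described here is the last interval of a culture series, day 9 against day 6 at 37 °C, in ROE2 cells. ROE2 cells are immortalized and were derived from tongue epithelium of a transgenic Wistar rat fetus aged 18 days, whose strain carries a gene for temperature-sensitive SV40 large T antigen. That viral protein drives division at the permissive temperature and loses function in warmer cells. Cells of both groups were plated on collagen in medium with 2% serum and 10 ng/ml EGF at 33 °C, moved to 37 °C after 24 h, and harvested 6 or 9 days later, with no other agent named for either day. Day 0 is the control of the series, and all 4 groups carry the transgene and are the same line. The members were chosen by day alone: 2 of the 4 arrays, with 1 array per day, and 8802 of 14218 genes, those whose log2 value reached 6 on any of the 4 arrays. Each gene was read from the probe set with its highest mean. In what follows a level is such a log2 value, a difference is the day 9 level minus the day 6 level, and genes are called higher or lower at 2-fold or more between the arrays, a difference of 1 or more in size. With 1 array per day there is no spread between replicates and no p-value, and an effect of the day cannot be told apart from one of the array.

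In a stratified epithelium such as that of the tongue, dividing basal cells rest on a basement membrane and their daughters move upward, change keratins and build a cross-linked envelope under the surface. Cells that run short of amino acids or carry a load of unfolded protein slow translation and raise the transcription factor ATF4, which switches on genes for amino acid synthesis, amino acid import and the charging of tRNAs. Epithelial cells also release chemokines and matrix proteases when they are wounded or stimulated.

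The arrays of days 6 and 9 were close. Across the 8802 genes the differences had a median of 0.05, and 91.2% of them were smaller than 0.5 in size. In all, 22 genes were higher on day 9 (0.25% of the genes) and 52 were lower (0.591%), so 74 differed (0.841%). Between days 0 and 3 the count was 568 genes (6.45%). Between days 3 and 6, an interval that shares the day 6 array with the last one, it was 214 (2.43%), with 73 higher (0.829%) and 141 lower (1.6%). At 1.5-fold the last interval had a nearly even split, with 234 genes higher (2.66%) and 250 lower (2.84%), 5.5% in all. Of the 74 genes, 70.3% were lower. The counts were 13 higher and 93 lower, or 87.7% lower, with each array centred on the hybridisation spike-ins. These are foreign control transcripts added at the hybridisation step, so they do not measure the RNA of the cells. A single shift was used, although the median shift was 0.01 for the bright cre and 0.25 for the dim bioB spike-ins. That centring moved the median gene from 0.05 to -0.13, and it takes 0.18 from every difference and list median given below.

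**Figure D1:**
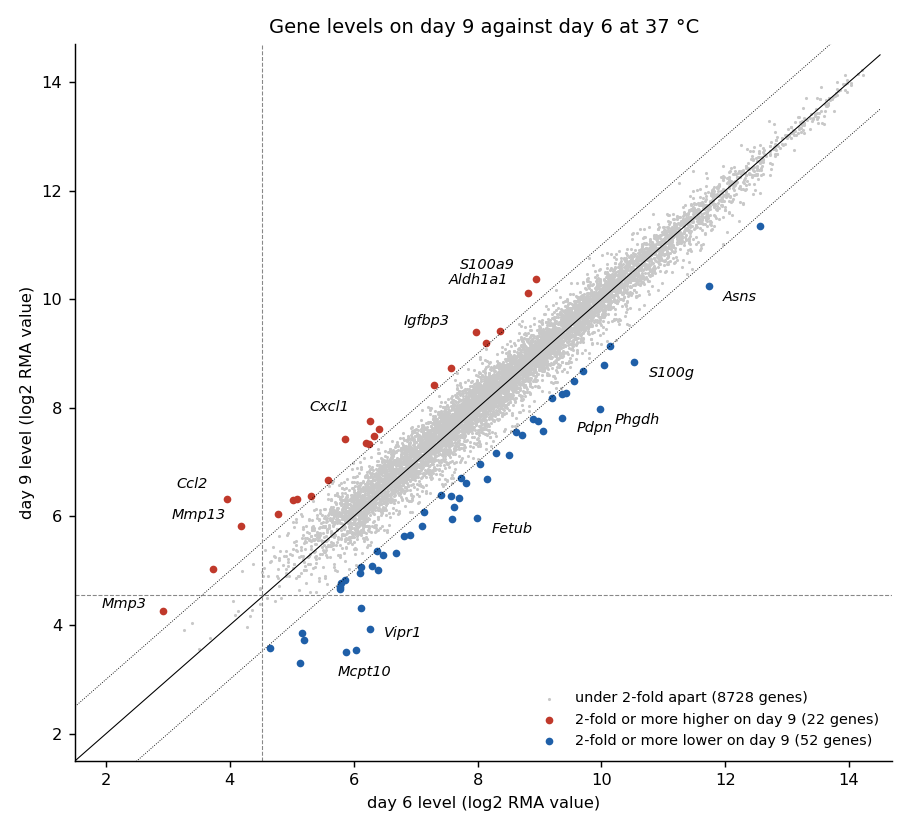
Level of each of the 8802 genes on day 6 (horizontal axis) and day 9 (vertical axis), both as log2 RMA values from 1 array; the solid line marks equal levels, dotted lines 2-fold, and dashed lines the brightest bacterial control probe set of each array. Most genes lie close to the line, with 22 red points above the 2-fold band and 52 blue points below it.

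The labelled cell type was checked by its markers. All 10 stratified epithelial markers were bright on both arrays, from 10.42 to 14.15 on day 6 and from 10.13 to 14.15 on day 9, and the largest difference among them was 0.45 in size. Of 8 fibroblast markers, 7 were at or below the brightest bacterial control on both arrays, as were all 5 endothelial markers on the array. Of the 8 white blood cell markers 4 were, and the brightest of the other 4 was Cd14, at 9.18 and 8.80. So were 4 of 6 skeletal muscle, 3 of 5 melanocyte and 2 of 7 simple and glandular epithelial markers, but none of 5 nerve and glia markers, of which Map2 was the brightest, at 10.77 and 10.33. No marker of another cell type was 2-fold apart.

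The signs of RNA quality were not the same on both arrays. For beta-actin, the probe set near the 5' end was at 12.32 on day 6 and 11.03 on day 9, while the 3' probe set was at 13.54 and 13.37. The gap between the ends was thus 1.22 on day 6 and 2.35 on day 9, against 2.25 and 2.44 on days 0 and 3. For beta-actin, then, day 6 was the array that stood apart. The 5S ribosomal RNA control read 5.61, 4.97, 5.20 and 6.47 on days 0, 3, 6 and 9, highest on day 9. For GAPDH the gap was 0.10, 0.04, -0.02 and 0.18 on days 0, 3, 6 and 9. For hexokinase it was 1.41, 1.48, 1.45 and 1.75, so for both of these genes it was largest on day 9. The 18 spike-in probe sets were a median of 0.18 higher on day 9, and 17 of them were higher. The bright cre probe sets differed by a median of 0.01 and the dim bioB probe sets by 0.25. The part of the transcript ends, the ribosomal RNA and the spike-in shift in the differences below was not tested. Among the genes called, 17 have 25 other probe sets, of which 21 differed in the direction of the gene and 6 by 2-fold or more. Those with a log2 value of 6 or more were 10, of 8 genes, and all 10 had the direction of the gene, the same 6 by 2-fold or more.

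**Figure D2:**
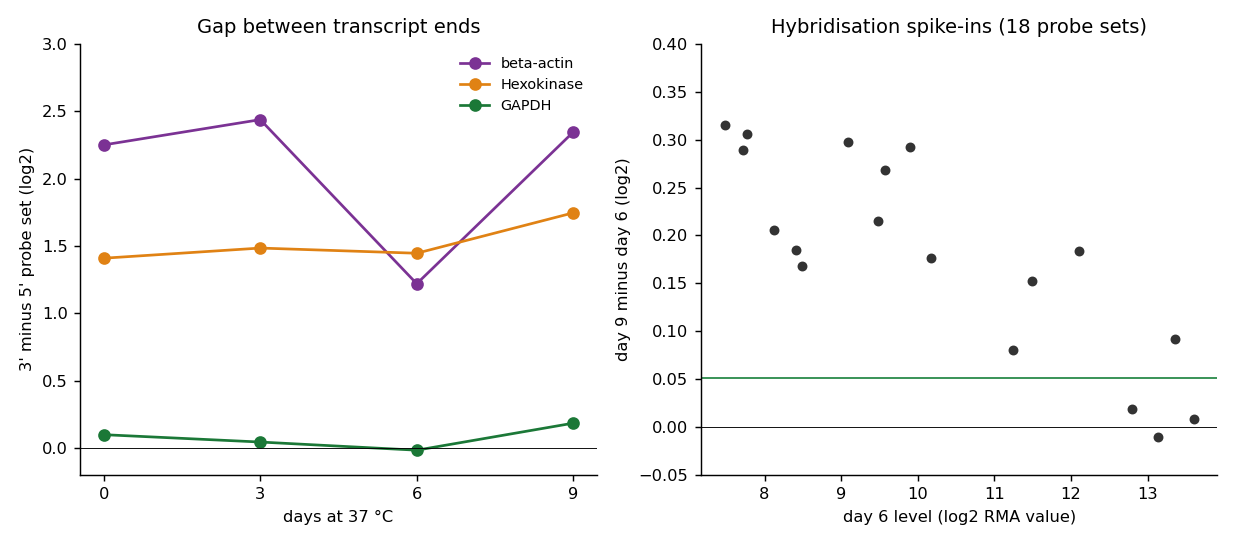
Left, level of the 3' probe set minus that of the 5' probe set (log2) for 3 rat control genes on each day; the beta-actin gap was 1.22 on day 6 and 2.35 on day 9. Right, difference between days 9 and 6 for the 18 spike-in probe sets against their day 6 level; the green line is the median gene at 0.05, and 17 of the 18 probe sets were higher on day 9.

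Of the 44 gene lists, that of ATF4 targets and amino acid supply had the median farthest from 0. Of its 38 genes above the minimum, 7 were lower on day 9 and 0 were higher, where 0.591% of all genes were lower. At 1.5-fold 15 of the 38 were lower, against 2.84% of all genes. The list median was -0.51, against 0.05 for all genes. Below 0 were 37 of the 38 differences, where 57.8% of all genes were above 0. The exception was Sesn2, a stress-induced brake on mTORC1, at 9.39 on day 6 and 9.67 on day 9. Vldlr reached the minimum on day 3 alone, and without it 6 of 37 genes were lower. The list median stayed between -0.70 and -0.49 under the alternative floors, scalings and probe set rules.

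The enzymes that make amino acids and one-carbon units held 4 of the 7 lower genes, and their median difference was -1.0 over 7 genes. Phgdh, the entry enzyme of serine synthesis, read 9.40, 10.76, 9.97 and 7.98 on days 0, 3, 6 and 9, and was 3.99-fold lower on day 9 than on day 6. Day 9 was its lowest array. Psph, the last enzyme of the same pathway, read 9.59, 10.77, 10.14 and 9.13, and Psat1, the transaminase between them, read 11.66, 12.20, 11.77 and 11.28. Psph was just past the 2-fold line, at 2.00-fold, and Psat1 was 0.49 lower.

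Asns, which makes asparagine, read 10.49, 11.79, 11.73 and 10.24. It held its day 3 level on day 6 and was 2.81-fold lower on day 9. Mthfd2, a mitochondrial folate enzyme that handles the one-carbon units from serine, read 9.12, 10.41, 9.56 and 8.50 and was 2.08-fold lower. Shmt2, which splits serine in mitochondria, was 0.33 lower, and Cth, which makes cysteine, 0.80 lower. A pair of genes outside the list belong to the same chemistry. Gpt2, the mitochondrial alanine transaminase, read 6.45, 9.13, 8.50 and 7.12 and was 2.60-fold lower, with -1.11 in its other probe set. Pck2, the mitochondrial PEP carboxykinase, read 7.09, 8.98, 8.04 and 6.97 and was 2.10-fold lower, with -0.54 in its other probe set.

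All 8 amino acid transporter genes above the minimum were at lower levels on day 9, with a median difference of -0.62. Slc7a5, the light chain of the large neutral amino acid transporter, read 9.42, 10.50, 9.42 and 8.28 and was 2.21-fold lower. Its heavy chain gene Slc3a2 was 0.66 lower. The cystine importer gene Slc7a11 read 7.11, 9.96, 8.63 and 7.70, the glutamine importer gene Slc1a5 read 9.01, 9.73, 9.27 and 8.37, and both were under 2-fold apart between days 6 and 9.

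The tRNA synthetase genes and the tRNA exporter gene Xpot shifted by smaller amounts in a common direction. All 11 were at lower levels on day 9, with 0 past 2-fold and a median of -0.47. The range ran from -0.13 for Xpot to -0.64 for Mars1, the methionine enzyme, and Gars1, the glycine enzyme, was at -0.62.

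Among the regulators, only Trib3 was 2-fold apart. Trib3, a pseudokinase that ATF4 induces and that restrains it, read 7.65, 9.78, 8.89 and 7.80, and its other probe sets gave -1.45 and -0.99. Atf4 itself read 12.67, 12.95, 12.83 and 12.67, a difference of -0.16. ATF4 is largely controlled through translation, which the arrays do not measure. Ddit3, which encodes the stress factor CHOP, differed by -0.25 and Chac1, a glutathione-degrading enzyme gene, by -0.16, while Ddit4, an mTORC1 inhibitor gene, was at -0.92. Vldlr, a lipoprotein receptor gene that ATF4 can induce, read 4.10, 6.94, 5.17 and 3.86. It was below the brightest bacterial control on day 9, at 4.56, and so at least 1.53-fold lower, and its other 3 probe sets gave -0.38, -0.98 and -2.74. Gdf15, a secreted stress factor gene, read 6.10, 9.35, 7.10 and 5.81 and was 2.44-fold lower.

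**Figure D3:**
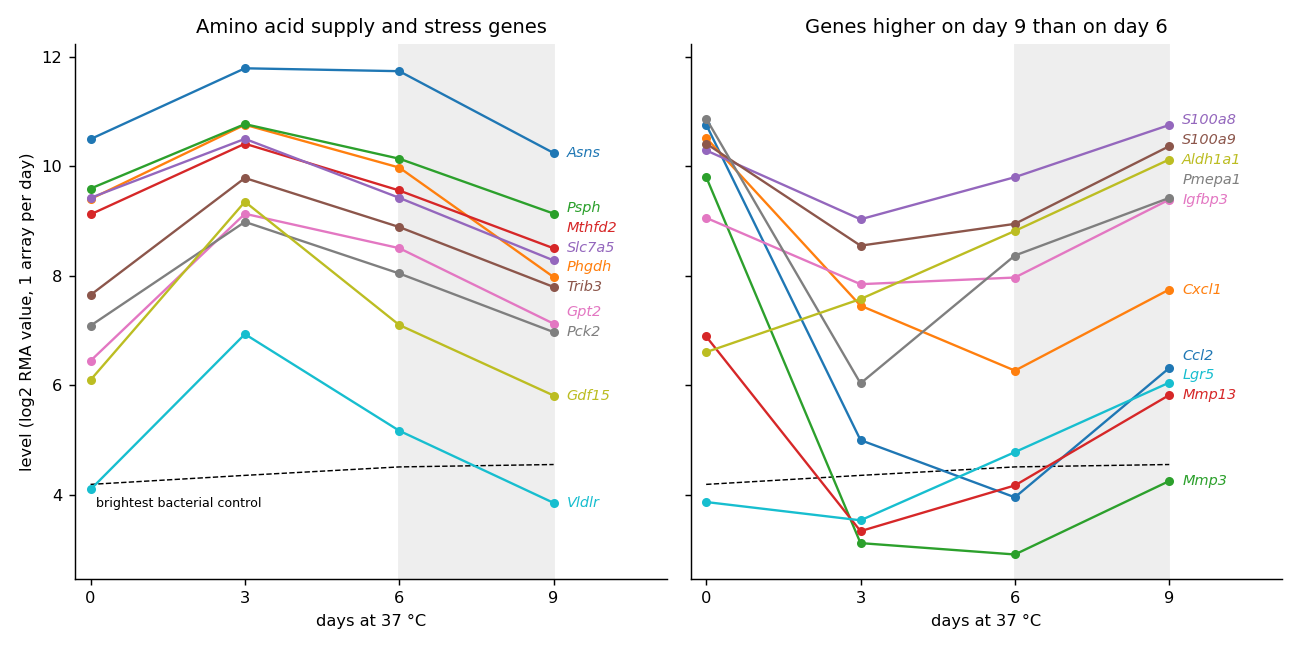
Levels (log2 RMA value, 1 array per day) of 10 amino acid and stress genes (left) and of 10 genes at higher levels on day 9 (right) against days at 37 °C; the grey band is the interval from day 6 to day 9 and the dashed line the brightest bacterial control. The genes on the left were chosen from the 52 lower genes, so a lower level on day 9 than on day 6 was given. Phgdh, for example, was at 9.97 and 7.98. All on the left had their highest level on day 3, as did 32 of the 38 genes of the amino acid list. On the right Ccl2, Cxcl1, Mmp13 and Pmepa1 were above their day 6 and below their day 0 level on day 9. Mmp3 was under the dashed line on days 3, 6 and 9.

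Over the whole series 32 of the 38 genes had their highest level on day 3 and 24 their lowest on day 9. On day 9 20 of them were within 0.5 of their day 0 level, and 24 were below it. No share over all 8802 genes stands beside these counts, so they do not show what is particular to the list.

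ATF4 binds with C/EBP partners to a composite element whose core reads TGATGNAA. RefSeq promoter windows in the GRCr8 build, each from 250 bases before the start to 50 after it, were at hand for 35 of the 38 genes. The core was present on either strand in 11 of the 35 (31.4%), against 1.84% of the 7442 kept genes with a window and 3.82% of 27457 windows in all. A match is a description of the letters only. The list was made of ATF4 targets and amino acid supply genes, so its share is no result about the interval. Among all genes called, the core was in 2 of 43 lower genes with a window (4.65%) and in 0 of 17 higher genes. Of the 7 list genes past 2-fold, the window of Trib3 held the core. In the stretches below the match is in capitals and the start follows the last base. The 100 bases before the start are printed for 5 of the 11 genes with the core, regulators, tRNA synthetases and a transporter. They are Trib3 (chr3:161275534-161275633, minus strand), the stress regulator gene Nupr1 (chr1:190645902-190646001, minus strand), Mars1 (chr7:65023754-65023853, minus strand), the isoleucine synthetase gene Iars1 (chr17:15193653-15193752, minus strand) and the arginine transporter gene Slc7a1 (chr12:11664388-11664487, plus strand).
Trib3: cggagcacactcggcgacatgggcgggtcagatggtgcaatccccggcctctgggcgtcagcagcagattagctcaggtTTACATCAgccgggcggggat
Nupr1: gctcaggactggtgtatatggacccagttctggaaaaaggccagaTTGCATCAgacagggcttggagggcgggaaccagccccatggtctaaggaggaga
Mars1: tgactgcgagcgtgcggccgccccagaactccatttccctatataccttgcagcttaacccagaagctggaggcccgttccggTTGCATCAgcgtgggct
Iars1: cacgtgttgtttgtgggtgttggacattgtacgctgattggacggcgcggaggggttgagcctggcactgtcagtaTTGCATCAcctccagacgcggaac
Slc7a1: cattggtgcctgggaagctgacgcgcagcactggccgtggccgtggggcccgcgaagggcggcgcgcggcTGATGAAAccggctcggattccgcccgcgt
The matches begin 21, 55, 17, 24 and 30 bases before the start, and those of Trib3, Nupr1, Mars1 and Iars1 are on the strand opposite to the gene. These 5 genes differed by -1.09, -0.59, -0.64, -0.54 and -0.41 between days 6 and 9. The others with the core, Slc1a4, Nars1, Cars1, Aars1, Tars1 and Chac1, differed by -0.58, -0.49, -0.44, -0.30, -0.28 and -0.16.

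The other genes with the largest decreases in level were of mixed kinds, and several had been high on days 3 and 6. The mast cell protease gene Mcpt10 read 5.33, 7.18, 6.03 and 3.53 and was at least 2.78-fold lower on day 9. Mcpt8 read 3.35, 7.01, 5.13 and 3.29 and was at least 1.49-fold lower. "At least" here and below means that the dim array was put at the highest level of any of its 27 bacterial control probe sets, 4.51 on day 6 and 4.56 on day 9. Both belong to a family of like genes, so the probe sets may not tell relatives apart. Of 10 other mast cell genes on the array, a list added after these genes were seen, 7 were at or below the brightest control on both days, and their summed levels were 38.1 and 38.3.

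Nptx1, a neuronal pentraxin gene, read 4.04, 7.66, 5.87 and 3.50 and was at least 2.49-fold lower. Vipr1, a receptor gene for vasoactive intestinal peptide, read 3.70, 6.27, 6.26 and 3.92 and was at least 3.26-fold lower, although its other, dim probe set gave 0.31. Fetub, which encodes the protease inhibitor fetuin-B, read 4.04, 7.35, 7.99 and 5.96 and was 4.08-fold lower. Each of these was at or below the brightest control on day 0 and clearly above it on days 3 and 6. Rcan2, a calcineurin inhibitor gene, read 5.62, 8.01, 6.12 and 4.31, at least 2.96-fold lower, with -1.17 in its other probe set.

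S100g, the gene of calbindin-D9k, read 8.04, 11.99, 10.53 and 8.84 and was 3.22-fold lower. Fut1, a fucosyltransferase gene of blood group H, was 3.08-fold lower, from 7.58 to 5.96, and Dapl1, a gene of differentiating epithelia, was 2.74-fold lower, from 8.15 to 6.69. Pdpn, the gene of podoplanin, a surface mucin of basal keratinocytes, read 10.37, 10.15, 9.36 and 7.82 and was 2.91-fold lower. Unlike the genes before it, Pdpn was highest on day 0. Fads1, the delta-5 fatty acid desaturase gene, read 5.60, 7.89, 5.20 and 3.72, at least 1.57-fold lower. Ifi27l2b was 2.73-fold lower, the small secreted protein gene Wfdc21 2.59-fold and the mitochondrial calcium-binding protein gene Efhd1 2.55-fold.

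Oga, which removes O-GlcNAc from proteins, was 1.48 lower in its brightest probe set and 0.41 and 0.59 lower in the others, and Mllt6 was 1.35 lower in its brightest probe set and under 0.2 in size in the others. Of the 50 named genes past 2-fold, these and Abcg1, Tm4sf1 and Atxn7l1, 5 in all, were under 2-fold apart with the mean over their probe sets, at -0.83, -0.52, -0.35, 0.72 and 0.96.

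On the higher side several of the genes with the largest differences were of chemokines, matrix proteases and secreted factors that had been brighter on day 0. Ccl2, the monocyte chemokine gene, read 10.76, 5.0, 3.96 and 6.32 on days 0, 3, 6 and 9. It was at least 3.49-fold higher on day 9 than on day 6 and still far below day 0. Cxcl1, a neutrophil chemokine gene, read 10.52, 7.45, 6.27 and 7.75 and was 2.79-fold higher. Cxcl3, of the same family, read 8.58, 6.99, 8.70 and 9.50, a difference of 0.80. In the list of chemokines, cytokines and colony stimulating factors 2 of 16 genes were higher and 0 lower, where 0.25% and 0.591% of all genes were, with a median of 0.09, and the receptor antagonist gene Il1rn was at -0.74.

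Mmp13, the collagenase-3 gene, read 6.89, 3.34, 4.17 and 5.82 and was at least 2.48-fold higher. Mmp3, the stromelysin gene, read 9.80, 3.12, 2.91 and 4.25. It was at or below the brightest bacterial control on both arrays, so no fold is given, although it is among the 22 genes. Both proteases reached the minimum of 6 on day 0 alone. With them, the matrix protease list held 2 higher genes and 1 lower of 12, where 0.25% and 0.591% of all genes were, the lower being Serpine2, the gene of the protease inhibitor nexin-1, from 9.70 to 8.68.

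The promoter windows of both proteases hold the letters TGANTCA, the core bound by AP-1, which reads alike on both strands. This core was in 2 of the 17 higher genes with a window (11.8%), in 3 of 43 lower genes (6.98%) and in 5 of the 35 genes of the amino acid list (14.3%). The 2 higher genes were these same proteases, which reached the minimum on day 0 alone. Their share is thus no result about the higher genes. It was in 4.99% of the windows of all kept genes and in 7.33% of all 27457 windows. The window of Cxcl1 holds a form of the NF-kappaB element (GGG and TTTCC, 2 bases apart) once on each strand, and this form was in 1.69% of the windows of kept genes. The bases before the start are given for Mmp3 (chr8:12925181-12925280, plus strand) and Mmp13 (chr8:12782729-12782828, plus strand), 100 each, and for Cxcl1 (chr14:17479322-17479441, minus strand), 120, with the matches in capitals, because these are the classical elements of these genes.
Mmp3: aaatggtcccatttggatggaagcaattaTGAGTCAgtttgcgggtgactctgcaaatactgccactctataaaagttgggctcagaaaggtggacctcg
Mmp13: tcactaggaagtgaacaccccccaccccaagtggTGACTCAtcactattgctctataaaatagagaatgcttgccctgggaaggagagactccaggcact
Cxcl1: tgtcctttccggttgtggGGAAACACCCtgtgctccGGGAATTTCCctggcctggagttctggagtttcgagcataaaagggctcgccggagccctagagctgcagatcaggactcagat
The protease matches begin 71 and 66 bases before the start, and those of Cxcl1 102 and 84 bases before it.

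S100a9 and S100a8 encode the subunits of calprotectin, an antimicrobial protein of oral epithelium. S100a9 read 10.41, 8.55, 8.95 and 10.36 and was 2.67-fold higher on day 9 than on day 6, while S100a8 read 10.29, 9.03, 9.80 and 10.75, a difference of 0.95. Both dipped on day 3 and were back near their day 0 level on day 9. In the S100 and antimicrobial list 1 gene was higher and, in S100g, 1 lower, where 0.25% and 0.591% of all genes were. The list had a median of 0.23 over 13 genes, 11 of them above 0, where 57.8% of all genes were. Spike-in centring brought that median to 0.05.

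Aldh1a1, which makes retinoic acid, read 6.61, 7.58, 8.82 and 10.12 and was 2.47-fold higher on day 9 than on day 6. It was at a higher level on each later array. Cyp26b1, which degrades retinoic acid, read 10.45, 8.35, 8.67 and 9.54, a difference of 0.87. Of the 12 retinoid genes 1 was higher and 0 were lower, where 0.25% and 0.591% of all genes were.

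Growth factor and developmental signal genes were among the higher ones too. Igfbp3, which binds insulin-like growth factors, read 9.06, 7.85, 7.97 and 9.39 and was 2.68-fold higher, with 1.69 in its other probe set. Pmepa1, a TGF-beta feedback gene, read 10.87, 6.04, 8.37 and 9.42 and was 2.07-fold higher. Nog, which encodes the BMP antagonist noggin, was 2.42-fold higher, from 5.02 to 6.29. Id3, a BMP target gene, was at 10.45 and 9.52, a difference of -0.93. Lgr5, an R-spondin receptor gene known from stem cells, read 3.87, 3.54, 4.78 and 6.05 and was 2.41-fold higher, while its relative Lgr4 went from 5.39 to 4.61 and Wnt4, a Wnt ligand gene, from 10.84 to 11.57. The TGF-beta, BMP and YAP list had a median of -0.12, with 19 of 27 genes below 0. The Wnt list had -0.05, with 12 of 20 below 0, where 57.8% of all genes were above 0. Each list held 1 gene higher and 0 lower, where 0.25% and 0.591% of all genes were. The higher gene of the Wnt list, Lgr5, reached the minimum of 6 on day 9 alone, as did Nog. The minimum favours such genes, so that count is no result about the Wnt list.

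Further genes past 2-fold on this side included Pcdh19, a protocadherin gene, 2.95-fold, from 5.87 to 7.43, Atp6v0a4, a proton pump subunit gene, 2.24-fold, the anion exchanger gene Slc4a2, 2.19-fold, Il22ra2, the gene of a soluble interleukin-22 trap, 2.12-fold, and the DNA damage mediator gene Mdc1, 2.21-fold. Tm4sf1 was at least 1.43-fold higher. Rnaseh2b, a ribonuclease H2 subunit gene, was 2.34-fold higher, the calmodulin-like gene Calml4 2.31-fold and the imprinted gene Mest 2.12-fold. Teddm3 was 2.10-fold higher and Gpld1, the gene of a phospholipase that cuts GPI anchors, 2.08-fold. Pcdh19, Il22ra2 and Teddm3 reached the minimum of 6 on day 9 alone, the array on which they were high.

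The epithelial differentiation genes differed little over the interval, and most kept the levels they had on day 6. None of the 5 suprabasal keratin genes was 2-fold apart. Krt13, the main suprabasal keratin of oral mucosa, read 9.68, 12.23, 13.55 and 13.91, Krt1 read 4.32, 5.78, 6.50 and 6.80, and Krt78 read 5.06, 7.86, 9.23 and 8.59. The difference was thus 0.36 for Krt13 and -0.64 for Krt78, and the list median of -0.18 was 0.21 under 1 of the alternatives. The basal keratins Krt5, at 13.06 and 13.16, and Krt14, at 14.15 on both days, were close to the top of the range of 1.55 to 14.23. Krt15 was 0.45 lower.

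Of the 24 cornified envelope genes 0 were 2-fold apart, with a median of 0.03, but 5 were 1.5-fold or more higher and 1 lower, where 2.66% and 2.84% of all genes were. Sprr3 and Sprr2d, genes of small proline-rich proteins cross-linked into the envelope, went from 11.25 to 12.14 and from 11.48 to 12.37. Tgm3, a cross-linking transglutaminase gene, went from 7.85 to 8.71 and Loricrin, the gene of a major envelope protein, from 12.70 to 13.29. Calml3, a calmodulin-like gene of keratinocytes, read 6.34, 9.56, 10.23 and 9.25, a difference of -0.98, just inside the 2-fold line. Among 18 transcription factors of epithelial differentiation 0 were 2-fold apart and the median was -0.09. Of 11 desmosome and 21 tight and adherens junction genes 0 were even 1.5-fold apart. Alox12, a lipoxygenase gene, was 2-fold apart, from 5.79 to 4.69. It was the 1 gene of 14 in the barrier lipid list to be so, where 0.841% of all genes were. Alox12 reached the minimum of 6 on day 3 alone, so its call says little about barrier lipids.

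**Figure D4:**
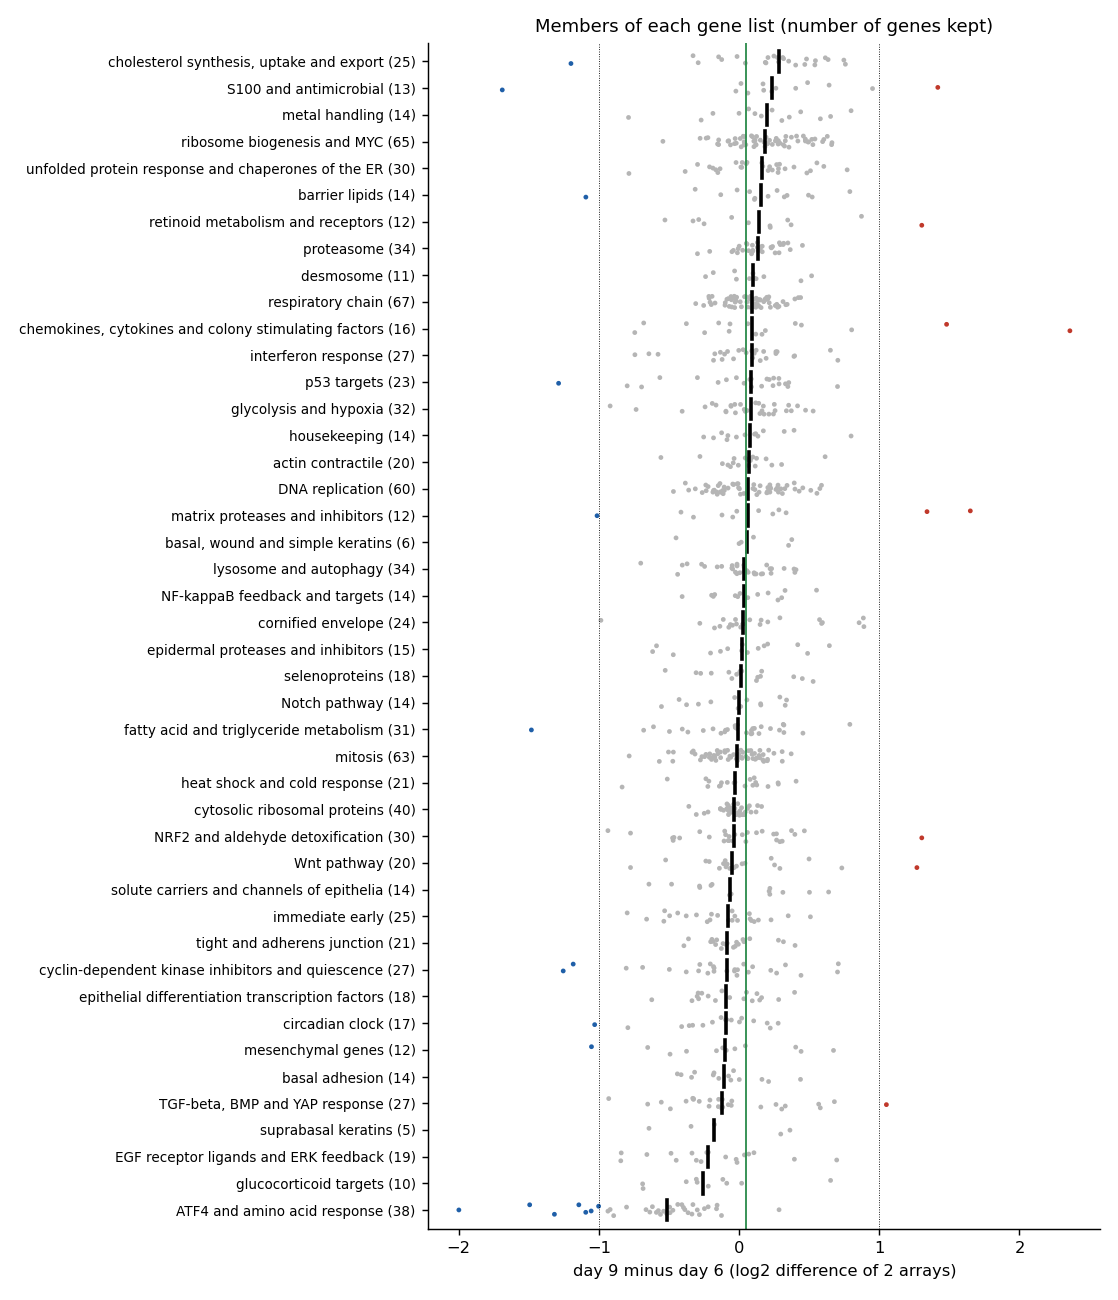
Difference between days 9 and 6 (log2) for the kept members of each gene list, 1 point per gene, with red and blue points 2-fold or more higher and lower; the black bar is the list median, the green line the median of all genes at 0.05, and the number of genes is in brackets. The ATF4 and amino acid list lies farthest from the green line, with a median of -0.51 and 7 blue points.

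Cell cycle genes differed little over the interval. Of 60 DNA replication genes and 63 mitosis genes 0 were 2-fold apart, with medians of 0.07 and -0.01, and Mki67, a proliferation marker gene, was at 9.72 and 9.53. Top2a, the topoisomerase gene of dividing cells, had the largest difference of the mitosis list, from 9.80 to 9.02, and the condensin genes Smc4 and Ncapd2 were at -0.57 and -0.50. Of 27 cyclin-dependent kinase inhibitor and quiescence genes, 2 were lower and 0 higher, where 0.591% and 0.25% of all genes were. Cdkn1c, which encodes p57, read 7.22, 10.33, 10.04 and 8.79 and was 2.38-fold lower, and Cdkn2b, which encodes p15, read 6.34, 6.86, 7.56 and 6.38 and was 2.27-fold lower. Cdkn1a, which encodes p21, was at 10.78 and 11.11. The MYC antagonist gene Mxd1 went from 10.51 to 11.22 and Txnip, a thioredoxin inhibitor gene, from 12.03 to 11.23.

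In a number of biosynthetic lists most members were slightly higher without passing 2-fold. For ribosome biogenesis and MYC target genes the median was 0.19 over 65 genes. Of these 52 were above 0 and 5 were 1.5-fold or more higher, where 57.8% and 2.66% of all genes were. The nucleolar genes Utp14a and Ddx18 were each at 0.66 and Cad, the gene of pyrimidine synthesis, at 0.63. With arrays centred on the spike-ins this median was 0.0035. The cholesterol list had a median of 0.28 over 25 genes. Of these 19 were above 0 and 4 were 1.5-fold or more higher, against the same shares of all genes, 57.8% and 2.66%. The sterol reductase gene Tm7sf2 went from 8.07 to 8.83, the sterol carrier gene Stard4 from 6.41 to 7.16 and the mevalonate kinase gene Mvk from 8.18 to 8.82. The exporter gene Abcg1 stood against them, from 7.81 to 6.61, but its other probe sets gave -0.05 and 0.19. Spike-in centring brought the cholesterol median to 0.10.

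The list of chaperones and unfolded protein response genes of the endoplasmic reticulum differed little. Of its 30 genes 0 were 2-fold apart and 21 were above 0, where 0.841% and 57.8% of all genes were. The median was 0.17, or -0.02 after spike-in centring. Dnajc3, a co-chaperone gene, was at 0.77, the disulfide isomerase gene Pdia4 at 0.60 and Hspa5, the gene of the main chaperone BiP, at 0.27. The oxidase gene Ero1a was at -0.79. The difference between this list and the amino acid list was not tested.

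The first interval of the series shares no array with the last, though all 4 arrays were normalised together. Of the 52 genes lower on day 9 than on day 6, 34 had been 2-fold or more higher on day 3 than on day 0 (65.4%), where 4.31% of all genes were, and 1 had been lower. These 34 are 8.97% of the 379 genes higher in that interval. Of the 22 genes higher on day 9 than on day 6, 11 had been lower on day 3 than on day 0 (50%), where 2.15% of all genes were, and 0 had been higher. These 11 are 5.82% of the 189 genes lower in that interval. The minimum of 6 on any array favours such genes: Mmp13, Mmp3 and Tm4sf1 of the 11 reached it on day 0 alone, and Mcpt8, Nptx1, Vldlr, Fads1 and Alox12 of the 34 on day 3 alone. With the minimum applied to days 6 and 9 only, an alternative added after these values were seen, 29 of 43 lower genes (67.4%, where 4.28% of 8444 genes were) and 8 of 19 higher genes (42.1%, where 1.62% were) had differed the opposite way between days 0 and 3. Across the 8802 genes the differences of these intervals had a Pearson correlation of -0.44, given as a description, since genes on 4 shared arrays are not independent.

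**Figure D5:**
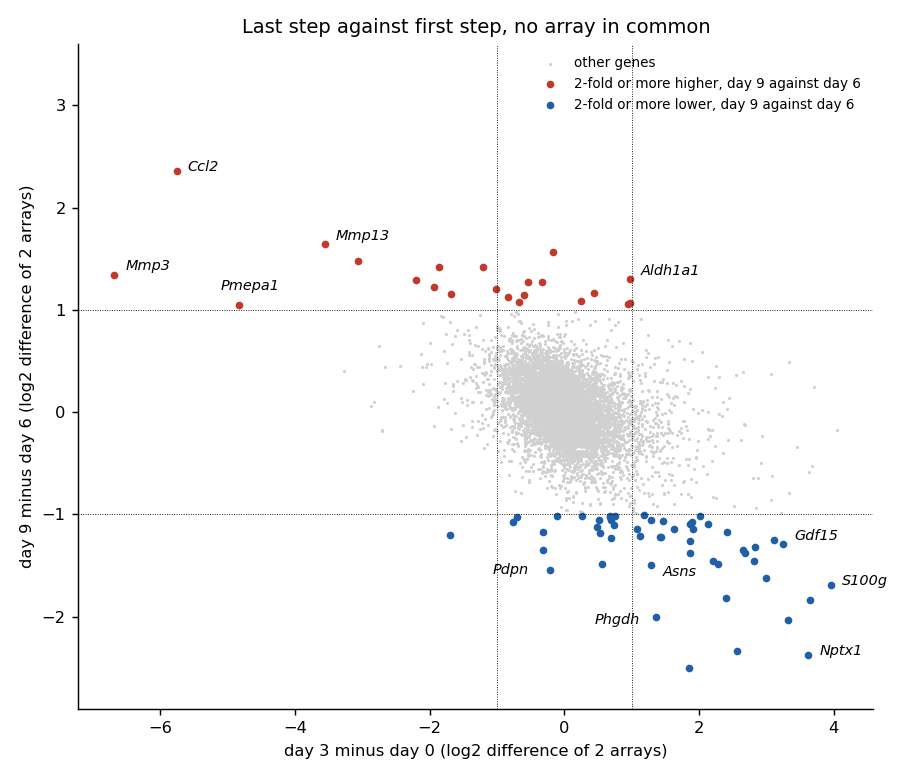
Difference between days 3 and 0 (horizontal axis) and between days 9 and 6 (vertical axis), both log2 differences of 2 arrays, for the 8802 genes; dotted lines mark 2-fold. Of the 52 blue genes 34 lie to the right of the 2-fold line, and of the 22 red genes 11 lie to the left of it.

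Day 9 against day 0 uses the day 9 array that chose the called genes, so for called genes only single values are given. Cdkn1c, S100g and Trib3 were at 1.57, 0.80 and 0.15 above their day 0 levels on day 9, and Phgdh was at -1.42.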

How the data were processed

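RNA of the ROE2 line was hybridised to 1 Affymetrix rat 3' expression array per day, from 500 ng of total RNA per the labels. The authors deposited log2 probe set values that, per the submitters' processing notes, came from RMA; its software is not given in the sources used here, and base 2 was taken from the span of the values, 1.55 to 14.23. RMA gives the arrays nearly 1 distribution, so a shift of most genes one way is largely removed. The number of arrays limits the precision.

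Of 31099 probe sets, 20832 had 1 gene symbol in the platform annotation, 436 several and 9831 none. RefSeq's gene table held the Entrez identifier of 20764. The probe set with the highest mean gave 14218 genes, and 8802 reached a log2 value of 6.

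Differences between 2 arrays were counted at 2-fold, with no test. Members of 44 gene lists and 8 marker lists were counted beside all genes. The mast cell list was added after values were seen. The members and lists were chosen with earlier results of these data known. Named genes were the 20 largest differences each way, the 4 largest of each list and a fixed set; other members of the amino acid list and Pck2, and genes named as 1.5-fold examples, were chosen after their values were seen. Counting at 2-fold was run on simulated data whose noise was taken from the differences between these same arrays. It therefore says nothing of the spread between replicates. Alternatives were floors, probe set rules, scalings and thresholds. Scripts ran in Python 3.11.15 (pandas 2.3.3, numpy 2.4.6, matplotlib 3.10.9, scipy 1.17.1).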

Additional observations from a re-analysis of the deposited data

How the results depend on the processing

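The counts of 22 higher and 52 lower genes became 30 and 55 with no floor, 26 and 55 with a floor of 5, and 12 and 29 with a floor of 8. They were 13 and 31 with values below 6 set to 6, 234 and 250 at 1.5-fold, and 2 and 9 at 3-fold. Centring on the spike-ins gave 13 and 93, and on the median gene 21 and 60. The share of lower genes was 70.3%, with an exact 95% binomial interval of 58.5% to 80.3% that covers counting only. That interval takes genes as independent, which genes on shared arrays are not, and it does not cover scaling or threshold. The share was 87.7% with spike-in centring, 51.7% at 1.5-fold and 81.8% at 3-fold. With only genes above the bacterial controls on both arrays, an alternative chosen after seeing the data, there were 18 and 44, and with the floor of 6 on days 6 and 9 only, also chosen then, 19 and 43. Of 298 alternative values of the 50 named genes past 2-fold, 0 changed sign, 9 were 0 because both days were set to the floor, and 263 stayed past 2-fold. These genes were chosen for a difference of 1 or more, so small shifts such as centring could not change a sign. With the mean over probe sets 5 of them fell under 2-fold. Of 46 list medians, 21 changed sign with spike-in centring and 6 with centring on the median gene. Dim genes limit the folds: of the 74 genes, 18 of the higher and 44 of the lower were above the bacterial controls on both arrays. No paired analysis was possible because each day has 1 array and the result comes from no test.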

Other observations

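Some lists not described above held genes near or past 2-fold. The list of EGF receptors, their ligands and ERK feedback genes had a median of -0.22 over 19 genes. Below 0 were 14 of them and 0 were past 2-fold, where 57.8% of all genes were above 0 and 0.841% past 2-fold. The ERK target gene Etv5 went from 6.93 to 6.09 and the inhibitor gene Spry2 from 8.44 to 7.60, while Lrig1, which restrains the receptor, went from 6.24 to 6.94. Among 10 glucocorticoid target genes 8 were below 0, where 57.8% of all genes were above 0, and the median was -0.26. Nr3c1, the gene of the receptor, went from 9.58 to 8.90 and its target Tsc22d3 from 9.24 to 8.56. Of 17 circadian clock genes Npas2, a clock transcription factor gene, was the 1 past 2-fold, from 5.80 to 4.77, where 0.841% of all genes were. Tfrc, the transferrin receptor gene, read 12.22, 10.79, 10.01 and 10.81 on days 0, 3, 6 and 9.

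The proteasome list had a median of 0.13 over 34 genes. Of these 28 were above 0 and 0 even 1.5-fold apart, where 57.8% and 5.5% of all genes were. The cytosolic ribosomal protein list had a median of -0.03 over 40 genes. With spike-in centring the proteasome median was -0.05.

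Of 2670 probe sets with no single gene symbol and a log2 value of 6 or more, 6 were higher and 34 lower on day 9, 1.5% in all.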
